A study of Mus musculus with 14 samples.

Results

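The let-7 family of microRNAs was examined in mouse dorsal root ganglia (DRG), where sensory neurons have their cell bodies. Members were taken by name. They were every mature arm listed for let-7a, b, c, d, e, f, g and i, copies included, and for miR-98. This gave 21 of the 1123 mature miRNAs in the deposited files, 9 of them 5p arms and 12 of them 3p arms, and all 21 passed the filter on low values (5 CPM or more in 3 or more libraries). CPM here is a read count scaled to a common library size.

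Small RNA was sequenced from 14 libraries in 4 groups. There were 5 libraries from naive and 3 from injured C57BL/6 animals, and 3 from each condition in CAST/Ei. C57BL/6 and CAST/Ei are inbred mouse strains. Naive animals carried no treatment in the labels, and no age is recorded for them. The injury was a crush of the left sciatic nerve, which carries axons of these neurons, held for 30 s in adult males aged 8 to 10 weeks. The ganglia were dissociated without a recorded sort of cells, so each library mixes neurons, glia and other cells, and fewer cells of a type and less RNA per cell cannot be told apart. The design text speaks of biological replicates but does not say how many animals made each library, so p-values measure the spread between these libraries.

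A microRNA hairpin yields a duplex whose 5p and 3p strands are both short RNAs. In the let-7 family the 5p strand is the one usually loaded into Argonaute, where bases 2 to 8, the seed, pair with target mRNAs, and the 3p strand is mostly discarded. let-7 was found as a timer of development in worms. In mammals it accumulates as cells differentiate, is held back in stem cells by the RNA-binding protein LIN28, and represses growth genes such as Hmga2, Myc and Ras. In peripheral nerve, let-7 has been reported to target nerve growth factor in Schwann cells.

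The 9 mature 5p sequences are shown because they carry the family's identity and because reads of near-identical members can be confused. All come from RefSeq (build GRCm38.p6), are written 5′ to 3′, and have the seed in capitals:
let-7a-5p: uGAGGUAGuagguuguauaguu
let-7b-5p: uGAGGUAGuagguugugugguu
let-7c-5p: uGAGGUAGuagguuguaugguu
let-7d-5p: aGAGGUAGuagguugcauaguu
let-7e-5p: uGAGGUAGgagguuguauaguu
let-7f-5p: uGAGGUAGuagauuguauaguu
let-7g-5p: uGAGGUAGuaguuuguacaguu
let-7i-5p: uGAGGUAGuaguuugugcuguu
miR-98-5p: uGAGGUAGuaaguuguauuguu

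All 9 have 22 bases and 1 common seed, so they differ only outside it. Positions are counted from 1 at the 5′ end and the let-7a-5p base is given first. let-7c-5p differs from let-7a-5p by A19G, let-7e-5p by U9G and let-7f-5p by G12A. let-7d-5p differs by U1A and U16C, let-7g-5p by G12U and U18C, and miR-98-5p by G11A and A19U. let-7b-5p is set apart from let-7a-5p by A17G and A19G, and let-7i-5p by G12U, A17G, U18C and A19U. Of the 36 pairs of 5p arms, 4 differ at 1 base and 10 at 2, and the largest difference, between let-7d-5p and let-7i-5p, is 6 bases. How the counting treated a read with 1 mismatch is not given in the sources used here, so the split among let-7a, b, c, e and f, the 5 arms with a neighbour at 1 base, is less certain than their sum.

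The 12 arms from the other strand are more varied. They have 21 or 22 bases and 8 different seeds, of which UAUACAA occurs in 5 arms. A few are shown because their levels set library or member apart in the results, again with bases 2 to 8 in capitals:
let-7a-1-3p: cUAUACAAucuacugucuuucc
let-7c-2-3p: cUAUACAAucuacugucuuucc
let-7b-3p: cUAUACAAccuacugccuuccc
let-7d-3p: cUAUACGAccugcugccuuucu
let-7e-3p: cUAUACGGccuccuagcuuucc
let-7f-1-3p: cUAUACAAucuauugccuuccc
miR-98-3p: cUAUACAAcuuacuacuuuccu

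The first 2 of these are the same molecule from different hairpins, and the files list it under both names. The reads under the name let-7a-1-3p made up 48.3% to 52.9% of the pair's reads over the 14 libraries, which hold 1089 to 5964 reads of the pair each. The Wilson 95% interval of that share covered an equal split in 13 of the 14 libraries. The exception was C57BL/6 naive library 1, with 892 reads against 794. The 2 names therefore hold 1 quantity split near evenly, and neither is a measure of its own hairpin. Such intervals cover counting error only, since the libraries carry no molecular identifiers.

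The family's hairpins are spread over several chromosomes, many of them in clusters (RefSeq positions on GRCm38.p6, with overlapping genes from GENCODE). Mirlet7a-1, Mirlet7f-1 and Mirlet7d lie together on the minus strand of chromosome 13, from 48538179 to 48538272, 48537829 to 48537917 and 48536012 to 48536114, in exons of the long noncoding RNA 6720427I07Rik. Mirlet7c-2 (chromosome 15, 85706603 to 85706697) and Mirlet7b (85707319 to 85707403) are 621 bases apart on the plus strand in exons of Lncppara. Mirlet7f-2 (151912346 to 151912428) and Mir98 (151913214 to 151913321) share an intron of the ubiquitin ligase gene Huwe1 on the plus strand of chromosome X.

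Other hairpins sit beside unrelated miRNAs. Mirlet7a-2 (chromosome 9, 41536716 to 41536811, plus strand) lies between Mir100 and Mir125b-1 in introns of 3110039I08Rik. Mirlet7c-1 (chromosome 16, 77599657 to 77599750, plus strand) follows Mir99a in an intron of Mir99ahg. Mirlet7e (chromosome 17, 17830352 to 17830444, plus strand) lies in an intron of Spaca6, 367 bases before Mir125a. Mirlet7g (chromosome 9, 106178840 to 106178927, plus strand) is in an intron of Wdr82, and Mirlet7i (chromosome 10, 122985640 to 122985724, minus strand) overlaps an exon of the processed pseudogene D630033A02Rik. Since let-7a-5p, let-7c-5p and let-7f-5p have 2 hairpins each and 1 mature 5p sequence for both, their 5p counts cannot be assigned to a locus.

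The libraries hold 4007706 to 15642360 reads, and 1 read is worth 0.0674 to 0.253 CPM. Among them, libraries 4 and 5 of C57BL/6 naive were unlike the rest, with Spearman correlations to the other 12 of 0.871 to 0.926 over the 638 miRNAs kept. The correlation was 0.951 between these libraries and at least 0.925 among the other 12. The 5 listed miRNAs of sensory neurons summed to 153739 and 161052 CPM in them and to 95969 to 137953 CPM elsewhere, and none was at 0 in any library. Leaving libraries 4 and 5 out moved the C57BL/6 injury log2 change of miR-124-3p from 0.18 to -0.02, and of miR-96-5p from 0.50 to 0.44. Both were thus lower on average in libraries 4 and 5 than in the rest of their group, while miR-138-5p, miR-182-5p and miR-183-5p were higher. The 3 of myelinating glia summed to 6737 and 7123 CPM against 15065 to 43006 CPM. The 3 erythrocyte miRNAs summed to 6803 and 6762 CPM against 7212 to 25813 CPM. Within this list miR-486-5p was higher on average in libraries 4 and 5, its C57BL/6 injury log2 change moving from -1.84 to -0.84 without them. The skeletal muscle sum left the range on both sides, at 5220 and 15645 CPM against 6254 to 13734 CPM. The leukocyte sum, at 6520 and 5583 CPM, lay within the 2729 to 7250 CPM of the others. The 7 epithelial miRNAs summed to 1591 and 447.2 CPM against 217.4 to 383.9 CPM, and the hepatocyte miRNA miR-122-5p stood at 660.6 and 368.9 CPM against 8.63 to 39.8 CPM. Within the epithelial list miR-203-3p was lower on average in libraries 4 and 5, its C57BL/6 injury log2 change moving from 0.20 to -0.14 without them. Log2 differences against C57BL/6 naive ganglia are therefore also given without these libraries.

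The 5p arms together were an abundant class in every library. Their summed level was 118522, 71656, 101338, 119143 and 72188 CPM in C57BL/6 naive libraries 1 to 5, and 125204, 93292 and 96971 CPM in the C57BL/6 injured libraries. Naive CAST/Ei libraries had 108735, 77751 and 96314 CPM, and injured CAST/Ei libraries 81786, 74727 and 79729 CPM. These sums are 6.65% to 12.6% of each library's total. The CAST/Ei injured libraries lay below all 3 C57BL/6 injured ones, while every other pair of groups compared overlapped.

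In C57BL/6 the mean 5p sum was 96569 ± 23608 CPM (SD, n = 5) without and 105156 ± 17460 CPM (n = 3) with injury. In CAST/Ei it was 94267 ± 15593 CPM (n = 3) without and 78747 ± 3630 CPM (n = 3) with injury. The log2 ratio of means, injured over naive, was 0.12 in C57BL/6 and -0.26 in CAST/Ei. The log2 ratio of CAST/Ei over C57BL/6 was -0.03 in naive and -0.42 in injured DRG. Without C57BL/6 naive libraries 4 and 5 the ratio was 0.11 for injury in C57BL/6 and -0.04 for strain in naive DRG. On plain CPM, without the scaling of library sizes, the CAST/Ei injury ratio was 0.02, so its sign rested on the scaling. No test was made of this sum, because it runs over members chosen as a set.

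let-7f-5p and let-7a-5p, which differ by a single base, headed the family at 19932 ± 3946 and 19728 ± 4929 CPM (SD over the 14 libraries). Their order was not stable, since let-7f-5p was the higher in 8 of 14 libraries. let-7c-5p followed at 16803 ± 5929 CPM, below let-7a-5p in 12 libraries, and then let-7g-5p at 11540 ± 2948 CPM. let-7d-5p averaged 9486 ± 2312 CPM and lay below let-7g-5p in 12 libraries. let-7e-5p (6480 ± 1316 CPM) and let-7b-5p (6399 ± 2839 CPM) were close, with let-7e-5p above in 10 of 14. let-7i-5p, at 3133 ± 1066 CPM, was below let-7b-5p in all 14 libraries although their ranges overlapped. miR-98-5p was the least abundant at 596.4 ± 150.5 CPM, and it was the 1 neighbour in this order whose range over libraries did not overlap that of the member above it.

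By mean level let-7f-5p ranked 11 and let-7a-5p 12 among the 1123 miRNAs, let-7c-5p ranked 17 and miR-98-5p ranked 132. These levels are read counts of molecules of equal length, so they need no length correction, but ligation and amplification can favour one sequence over another and were not measured here.

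**Figure D1:**
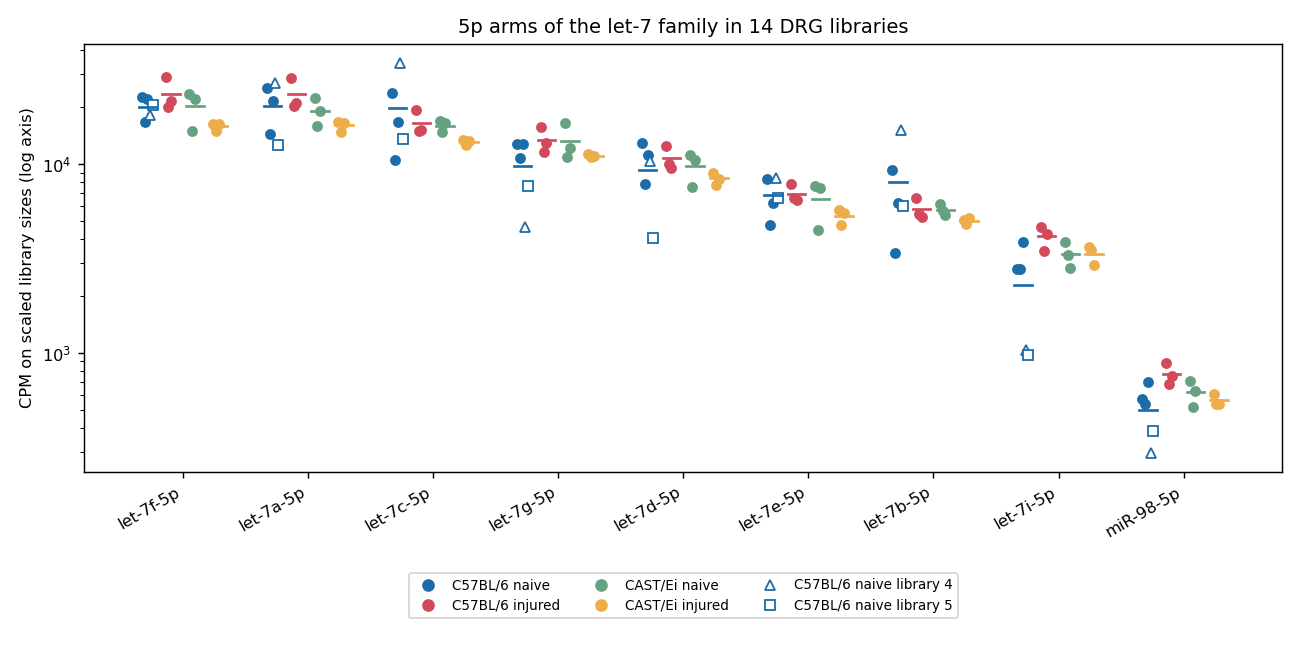
Level of each let-7 5p arm in every library, in CPM on a log axis, with members ordered by mean, points for libraries coloured by group, short lines for group means, and open symbols for C57BL/6 naive libraries 4 and 5. The open symbols lie below every other point for let-7g-5p, let-7i-5p and miR-98-5p, and the triangle of library 4 lies above every other point for let-7b-5p and let-7c-5p.

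Shares of the 5p pool do not depend on how a library is scaled. let-7f-5p took 20.2% ± 0.248 (SD, n = 3) of the pool in CAST/Ei injured and 22.3% ± 0.790 (n = 3) in C57BL/6 injured DRG, and let-7a-5p took 20.3% ± 0.472 and 22.1% ± 0.642. Both shares were lower in all 3 CAST/Ei injured libraries than in any C57BL/6 injured library. let-7c-5p held 16.6% ± 0.244 in CAST/Ei injured and 15.7% ± 0.312 in C57BL/6 injured libraries, the reverse order, and let-7g-5p held 14.1% ± 0.449 and 12.8% ± 0.496. let-7b-5p held 6.37% ± 0.160 and 5.52% ± 0.296.

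In CAST/Ei naive DRG the shares were 21.3% ± 1.86 for let-7f-5p, 20.2% ± 0.423 for let-7a-5p and 17.1% ± 1.73 for let-7c-5p (n = 3). They were 13.9% ± 1.34 for let-7g-5p, 10.3% ± 0.607 for let-7d-5p and 3.57% ± 0.661 for let-7i-5p. miR-98-5p made up 0.656% ± 0.00736 of the pool there, the smallest spread of any member in that group.

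C57BL/6 naive libraries 4 and 5 left the range of the others on the same side for some members and not for others. let-7c-5p made up 28.6% of the pool in library 4 and 18.7% in library 5, against 14.7% to 20.1% in the other 12. let-7b-5p made up 12.7% and 8.33%, above the 4.74% to 7.85% of the others. let-7g-5p lay outside on the low side, at 3.87% and 10.6% against 10.7% to 15.3%, as did let-7i-5p at 0.867% and 1.35% against 2.35% to 4.71%. let-7f-5p went opposite ways, with 15.3% in library 4 and 28.3% in library 5 against 19.1% to 23.3% elsewhere. Without these libraries the C57BL/6 naive shares averaged 21.4% for let-7f-5p, 20.9% for let-7a-5p, 17.1% for let-7c-5p and 12.8% for let-7g-5p.

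**Figure D2:**
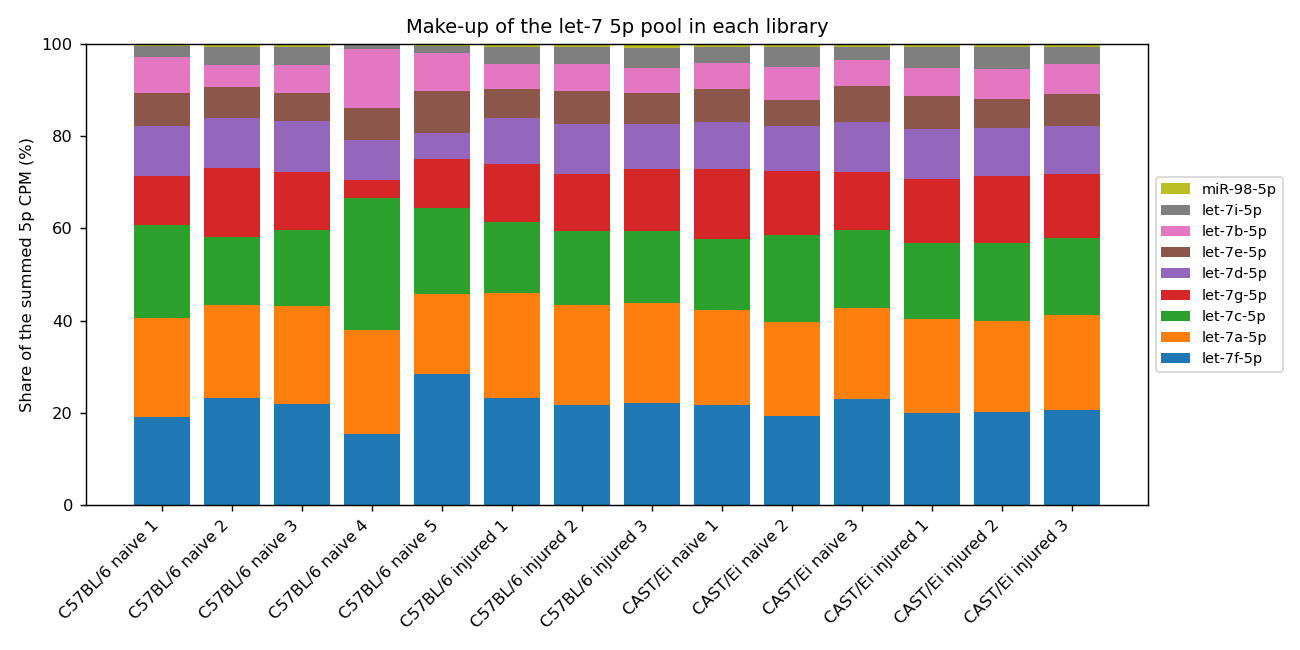
Make-up of the let-7 5p pool, with 1 bar per library and the share of each member of the summed 5p CPM in percent. The bars of C57BL/6 naive libraries 4 and 5 differ from the other 12 and from each other, with 28.6% of let-7c-5p in library 4 and 28.3% of let-7f-5p in library 5.

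After crush of the nerve no family member passed the test in C57BL/6. Of the 21 members 0 had an adjusted p below 0.05 (limma on log2(CPM + 1), two-sided, Benjamini-Hochberg over the 638 miRNAs), where 3.13% of all miRNAs tested did, and edgeR and DESeq2 also called 0. At an unadjusted p below 0.05 there were 2 members, let-7i-5p and miR-98-5p, against 23.7% of all miRNAs.

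let-7i-5p was at 2789, 2766, 3873, 1033 and 973.3 CPM in C57BL/6 naive libraries 1 to 5 and at 4665, 3463 and 4285 CPM in the injured ones. The groups overlapped through naive library 3, and naive libraries 4 and 5 were the lowest of the series. The log2 change was 1.06 ± 0.39 (SE), with an adjusted p of 0.132 (limma). Without naive libraries 4 and 5 it was 0.40, with an adjusted p of 0.292, and over all alternatives the adjusted p ran from 0.0342 to 0.386. The lowest came from leaving out C57BL/6 naive replicate 3, which gave 1.30.

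miR-98-5p, the 5p arm with the lowest level, had 570.2, 535.9, 697.0, 296.7 and 385.3 CPM in the naive and 887.0, 687.9 and 755.3 CPM in the injured C57BL/6 libraries. Naive library 3 lay within the injured range, and libraries 4 and 5 were again lowest. Its log2 change was 0.70 ± 0.27 (SE; limma adjusted p = 0.138), and 0.37 without naive libraries 4 and 5. Leaving out C57BL/6 naive replicate 3 gave 0.84, with an adjusted p of 0.0470 in a range of 0.0470 to 0.386 over the alternatives.

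let-7g-5p stood at 12715, 10783, 12728, 4612 and 7678 CPM in the naive and 15748, 11565 and 12928 CPM in the injured C57BL/6 libraries. Its log2 change of 0.55 ± 0.30 (SE; limma adjusted p = 0.294) became 0.14 without naive libraries 4 and 5. Libraries 4 and 5 held the lowest naive values of all 3 of these members. The glial and erythrocyte marker sums given above were also low in libraries 4 and 5, while other marker sums there were higher, mixed or within range. The part of these markers in the values was not tested.

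The other 5p arms had estimates closer to 0. let-7a-5p had a log2 change of 0.26 ± 0.27 (SE), let-7f-5p of 0.22 ± 0.22, let-7d-5p of 0.31 ± 0.32 and let-7e-5p of 0.05 ± 0.24. let-7b-5p was at -0.30 ± 0.35 and let-7c-5p at -0.14 ± 0.31. Their adjusted p-values in limma ran from 0.550 to 0.920. The sign for let-7c-5p was positive, and that for let-7e-5p negative, under some alternatives. The median over the 9 arms was 0.26, beside 0.12 for all 638 miRNAs. Without naive libraries 4 and 5 these medians were 0.15 and 0.14. The members' own changes were then 0.03 for let-7d-5p, -0.01 for let-7b-5p, 0.02 for let-7c-5p and 0.15 for let-7e-5p, and 0.21 for let-7a-5p and 0.20 for let-7f-5p.

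Among the 3p arms in this comparison, let-7f-2-3p was the 1 member of 21 whose groups did not overlap, and 8.62% of all miRNAs lay wholly higher after injury. It had 47.4, 46.7, 45.1, 18.6 and 42.9 CPM in C57BL/6 naive and 62.8, 48.5 and 57.5 CPM in C57BL/6 injured libraries, all 3 of the latter higher. Its log2 change was 0.54 ± 0.34 (SE; limma adjusted p = 0.356), and 0.27 without naive libraries 4 and 5. With those libraries left out, 4 of the 21 members lay wholly higher after injury, let-7c-2-3p, let-7d-3p, let-7f-2-3p and miR-98-3p, as did 14.4% of all miRNAs. The arm with the lowest p was let-7b-3p, at a log2 change of -0.80 ± 0.48 (SE; limma adjusted p = 0.331). Its naive libraries 1 to 5 held 168.0, 136.4, 144.2, 432.7 and 745.3 CPM and the injured ones 181.2, 143.8 and 118.0 CPM. Libraries 4 and 5 were the highest of the series, and the change was -0.03 without them.

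In CAST/Ei the injured ganglia showed no member past the threshold, where 1.10% of all miRNAs passed. None of the 21 had an unadjusted p below 0.05 in limma, against 6.43% of all, and edgeR and DESeq2 again called 0. let-7b-5p and let-7c-5p, neighbours at 1 base, were the 2 members whose groups did not overlap, both with lower values in injured libraries, where 16.5% of all miRNAs lay wholly lower. Of the 7 lists of cell type markers, 4 also had sums wholly lower in injured CAST/Ei libraries. The sensory neuron sum was 120554 to 136550 CPM in naive and 95969 to 104135 CPM in injured libraries, and the myelinating glia sum 34807 to 39832 and 28781 to 30287 CPM. The skeletal muscle sum was 8558 to 11223 and 6254 to 7253 CPM, and the erythrocyte sum 9088 to 12815 and 7212 to 8867 CPM. Within the sensory neuron list miR-124-3p went the other way, at a log2 change of 0.24. The part of these markers in the values of let-7b-5p and let-7c-5p was not tested.

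let-7c-5p was at 16808, 14702 and 16423 CPM in CAST/Ei naive and at 13372, 12567 and 13320 CPM in CAST/Ei injured libraries, a log2 change of -0.29 ± 0.34 (SE; limma adjusted p = 0.895). let-7b-5p was at 6128, 5605 and 5362 CPM in naive and 5062, 4811 and 5173 CPM in injured libraries, a change of -0.18 ± 0.39 (adjusted p = 0.938). Without C57BL/6 naive libraries 4 and 5, which also enter the spread shared by all groups, the adjusted p was 0.532 for let-7c-5p and 0.768 for let-7b-5p.

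The other 5p arms had log2 changes of -0.32 ± 0.24 (SE) for let-7f-5p, -0.25 ± 0.27 for let-7e-5p, -0.24 ± 0.30 for let-7a-5p and -0.23 ± 0.34 for let-7g-5p. let-7d-5p was at -0.20 ± 0.35, miR-98-5p at -0.13 ± 0.30 and let-7i-5p at 0.02 ± 0.44, with adjusted p-values in limma of 0.809 to 0.982. Relative to the median of all miRNAs, 8 of the 9 arms were on the low side. The median itself depended on the scaling, at -0.09 here and 0.15 on plain CPM, where 7 of the 9 arms were above 0 and still 8 were below the median of all. let-7i-3p, the 3p arm with the lowest p, changed by 0.88 ± 0.68 (limma adjusted p = 0.809). It held 15.3, 29.1 and 1.89 CPM in naive and 17.0, 20.2 and 22.3 CPM in injured CAST/Ei libraries, and without CAST/Ei naive replicate 3 the change was -0.10.

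**Figure D3:**
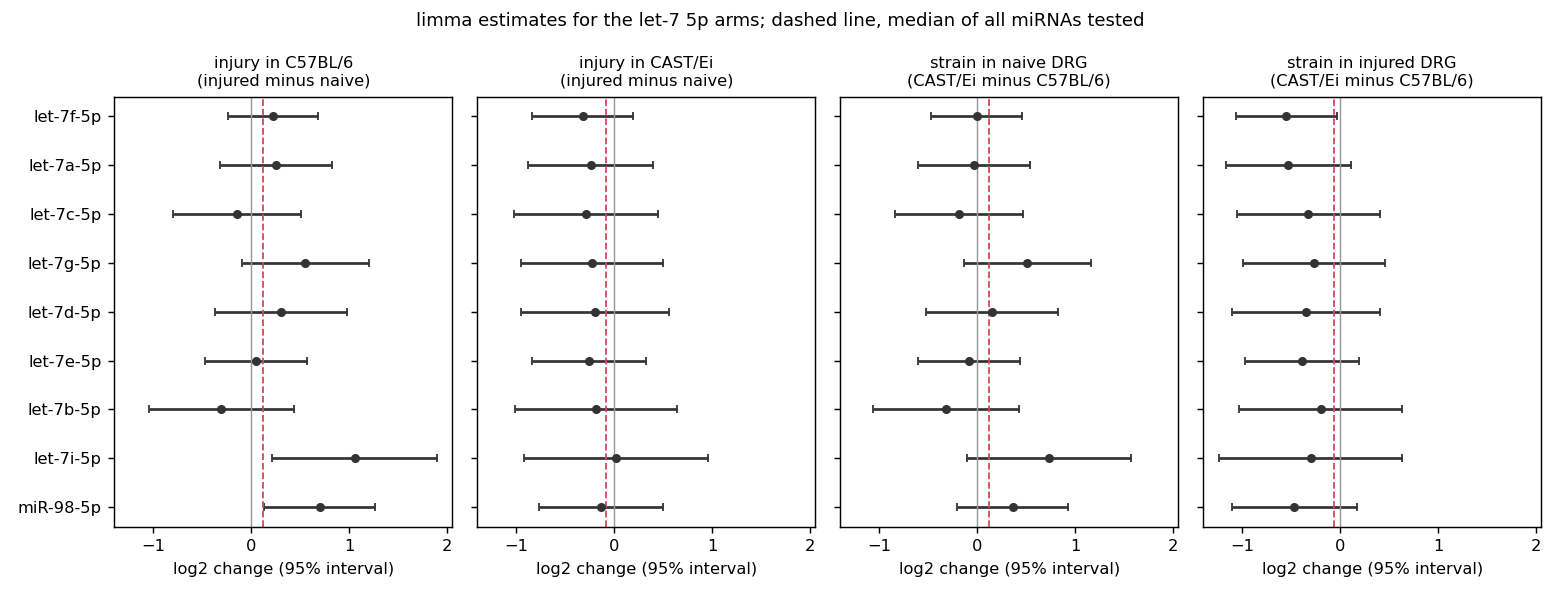
Log2 change of each 5p arm with its 95% interval from limma in the 4 pairwise comparisons, with the direction under each panel's title, a grey line at 0 and a dashed line at the median of all 638 miRNAs. All 9 estimates lie left of 0 for strain in injured DRG, and the interval of let-7i-5p for injury in C57BL/6 runs from 0.22 to 1.89.

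The strains were compared without injury first. In naive DRG 0 of 21 members passed the threshold with limma and 0 with edgeR, where 11.1% and 12.7% of all miRNAs passed. DESeq2 called 2 members, let-7b-3p and let-7e-3p, where it called 18.5% of all miRNAs. The same 2 had an unadjusted p below 0.05 in limma, against 31.8% of all miRNAs. In 0 of 21 members were the groups apart, where 16.5% of all miRNAs were. Without C57BL/6 naive libraries 4 and 5, 1 of the 21 members lay wholly higher in CAST/Ei, let-7c-2-3p, as did 14.7% of all miRNAs. let-7a-1-3p, the other name of that sequence, did not.

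let-7b-3p had a log2 difference, CAST/Ei minus C57BL/6, of -1.06 ± 0.48 (SE; limma adjusted p = 0.142, and 0.0166 in DESeq2). C57BL/6 naive libraries 4 and 5, at 432.7 and 745.3 CPM, held its highest values, and without them the difference was -0.29, with an adjusted p of 0.456 in limma.

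let-7e-3p was at 30.0, 27.1, 41.3, 64.4 and 123.4 CPM in C57BL/6 naive libraries 1 to 5 and at 31.2, 30.4 and 15.3 CPM in the CAST/Ei naive ones. Its log2 difference, CAST/Ei minus C57BL/6, was -0.96 ± 0.41 (SE; limma adjusted p = 0.130). Over the alternatives the adjusted p ran from 0.0254, in DESeq2, to 0.417. Without C57BL/6 naive libraries 4 and 5, which held its highest values, the difference was -0.39.

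Among 5p arms the log2 strain difference in naive DRG was 0.74 ± 0.39 (SE; limma adjusted p = 0.212) for let-7i-5p and 0.51 ± 0.30 (adjusted p = 0.265) for let-7g-5p. It was 0.37 ± 0.27 for miR-98-5p and 0.15 ± 0.32 for let-7d-5p. The values of let-7i-5p in CAST/Ei naive libraries were 3873, 3289 and 2800 CPM, and they overlapped those of C57BL/6 naive libraries 1 to 3. Without libraries 4 and 5 the estimates were 0.09 for let-7i-5p, 0.11 for let-7g-5p, 0.04 for miR-98-5p and -0.12 for let-7d-5p. The remaining 5 arms lay between -0.32 (let-7b-5p, ± 0.35 SE) and -0.00 (let-7f-5p, ± 0.22 SE). let-7c-5p had -0.18 ± 0.31, let-7e-5p -0.09 ± 0.24 and let-7a-5p -0.03 ± 0.27. Without libraries 4 and 5 these 5 arms lay between -0.08 (let-7a-5p) and 0.01 (let-7e-5p), with -0.03 for let-7b-5p, -0.02 for let-7c-5p and -0.03 for let-7f-5p.

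The same strain comparison was then made in injured DRG. All 21 log2 differences were below 0, that is lower in CAST/Ei injured than in C57BL/6 injured libraries, and the groups did not overlap for 8 of 9 5p arms and 4 of 12 3p arms. Over all miRNAs 20.5% lay wholly lower in CAST/Ei and 15.4% wholly higher, and the counts of the members are given beside these as a description. Of the 7 lists of cell type markers, 3 had sums that were wholly lower in CAST/Ei injured libraries too. The myelinating glia sum was 28781 to 30287 CPM there and 34077 to 43006 CPM in C57BL/6 injured libraries, the skeletal muscle sum 6254 to 7253 and 8747 to 9488 CPM, and the erythrocyte sum 7212 to 8867 and 10580 to 13863 CPM. Within the skeletal muscle list, miR-1a-3p was lower in CAST/Ei injured libraries (log2 difference -0.48), while miR-133a-3p (0.05) and miR-206-3p (0.46) were not. The sensory neuron sums overlapped, at 95969 to 104135 and 99982 to 105724 CPM. The part of these markers in the members' differences was not tested. The median difference of the 5p arms was -0.35, beside -0.06 for all 638. All 9 5p arms stayed below 0 and below the median of all miRNAs under the other scalings, edgeR and DESeq2, whereas 4 of the 12 3p arms were above 0 on plain CPM.

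None of the 21 passed the adjusted threshold, where 3.29% of all miRNAs did, and edgeR and DESeq2 called 0. An unadjusted p below 0.05 was reached by 2, let-7f-5p and let-7f-1-3p, against 8.78% of all. When only the injured libraries were modelled, 4 members passed, and 16.5% of the 638 miRNAs did. That fit does not use the spread of the naive libraries.

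let-7f-5p had 28995, 20160 and 21447 CPM in C57BL/6 injured and 16372, 15035 and 16335 CPM in CAST/Ei injured libraries, each of the latter lower. Its log2 difference was -0.55 ± 0.24 (SE). The limma adjusted p was 0.488 over all groups and 0.0270 in the injured libraries alone. Over all alternatives it ran from 0.0270 to 0.999.

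let-7a-5p followed closely, with 28643, 20357 and 21060 CPM in C57BL/6 injured and 16695, 14817 and 16553 CPM in CAST/Ei injured libraries. Its difference was -0.53 ± 0.30 (SE), and the limma adjusted p was 0.696 over all groups and 0.0294 in the injured libraries alone, in a range of 0.0294 to 0.999. C57BL/6 injured library 1 was the highest of the 14 for both of these arms.

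miR-98-5p was at 887.0, 687.9 and 755.3 CPM against 603.1, 539.1 and 537.6 CPM, a difference of -0.47 ± 0.30 (SE; limma adjusted p = 0.785, and 0.0389 to 0.999 over the alternatives). let-7f-1-3p, the lowest-p 3p arm, was at 99.2, 82.9 and 80.0 CPM in C57BL/6 injured and 42.9 to 61.9 CPM in the 3 CAST/Ei injured libraries, all lower. Its difference was -0.67 ± 0.31 (adjusted p = 0.552, and 0.0363 to 0.999 over the alternatives). let-7f-1 is made from the same stretch of chromosome 13 as let-7a-1 and let-7d.

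The other 5p arms had smaller estimates between the injured strains. let-7e-5p was at -0.39 ± 0.27 (SE), let-7d-5p at -0.35 ± 0.35, let-7c-5p at -0.32 ± 0.34 and let-7i-5p at -0.30 ± 0.44. let-7g-5p was at -0.26 ± 0.34 and let-7b-5p at -0.20 ± 0.39. Adjusted p-values in limma for these were 0.862 to 0.985. let-7i-5p was the 1 5p arm whose groups overlapped, at 4665, 3463 and 4285 CPM against 3619, 3521 and 2909 CPM.

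The difference between the strains' injury effects was tested directly as an interaction. No member passed, as none of the 638 miRNAs did with limma and 8 did with DESeq2, and 0 members had an unadjusted p below 0.05, against 8.15% of all. The lowest p belonged to miR-98-5p, whose injury effect in CAST/Ei minus that in C57BL/6 was -0.83 ± 0.40 (SE; limma adjusted p = 0.529). let-7i-5p followed at -1.04 ± 0.59 (adjusted p = 0.531). Without C57BL/6 naive libraries 4 and 5 these were -0.50 and -0.39. So the opposite signs of miR-98-5p in the 2 strains' injury comparisons were not shown to differ.

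Averaged over strains, the injury effect passed for 0 of 21 members, where 4.23% of all miRNAs passed, and 0 had an unadjusted p below 0.05, against 15.8%. let-7i-5p was at 0.54 ± 0.30 (SE; limma adjusted p = 0.404), and at 0.21 without C57BL/6 naive libraries 4 and 5. let-7i-3p was at 0.79 ± 0.46 (adjusted p = 0.419), again at 0.79 without those libraries, and at 0.30 to 1.15 over the alternatives. Its CAST/Ei naive library 3, at 1.89 CPM from 11 reads, enters this average.

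The 3p arms were scarce beside the 5p arms. Summed, they made up 0.743% to 1.43% of all family reads in the other 12 libraries, and 2.09% and 4.19% in C57BL/6 naive libraries 4 and 5. let-7d-3p was the most abundant of them by mean, at 21.8% to 64.4% of the summed 3p CPM. The rarest, let-7a-2-3p, had 1.13 to 8.87 CPM, and let-7c-1-3p had 6.48 to 18.3 CPM.

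let-7d-3p was at 272.6, 320.6, 282.5, 1635 and 1325 CPM in C57BL/6 naive libraries 1 to 5. It was at 344.5, 334.0 and 337.7 CPM in C57BL/6 injured, 324.5, 468.6 and 157.3 CPM in CAST/Ei naive and 322.6, 274.5 and 420.5 CPM in CAST/Ei injured libraries. Libraries 4 and 5 were above every other library. C57BL/6 naive libraries 1 to 3 lay below all 3 C57BL/6 injured libraries, and both CAST/Ei groups overlapped every other group. Its log2 difference was -0.95 for strain in naive DRG (adjusted p = 0.265 in limma) and -0.01 without these libraries.

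The direction was not common to all 3p arms. In naive library 4, 5 of the 12 arms lay above the range of the other 12 libraries and 4 lay below it, and in library 5, 10 lay above and 1 below. miR-98-3p was at 21.0 CPM in library 4 and 81.8 CPM in library 5, around a range of 24.2 to 56.5 CPM elsewhere. let-7a-1-3p, whose sequence is also counted as let-7c-2-3p, was at 79.9 and 282.4 CPM around a range of 122.2 to 218.9 CPM.

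**Figure D4:**
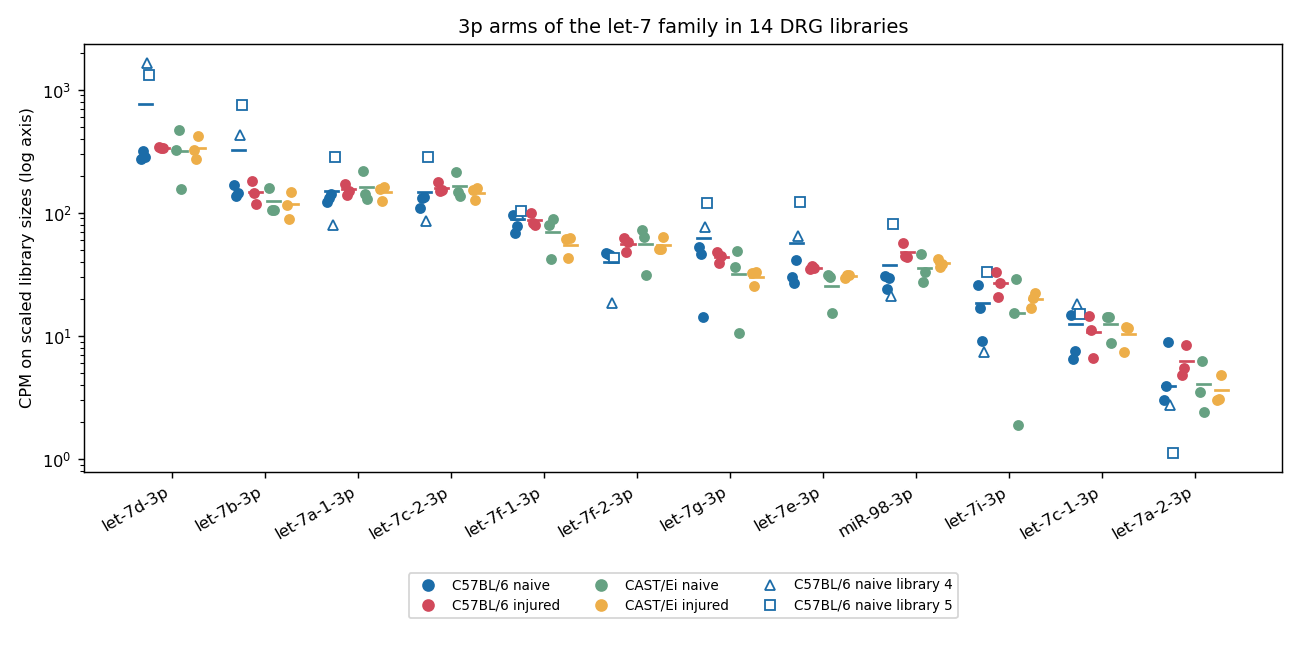
Level of each 3p arm in every library, in CPM on a log axis, ordered by mean, with groups and symbols as for the 5p arms. let-7d-3p and let-7b-3p stand highest in C57BL/6 naive libraries 4 and 5 (open symbols), and let-7i-3p is lowest, at 1.89 CPM, in a CAST/Ei naive library.

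The ratio of 5p to 3p CPM describes which strand of a hairpin was recovered, and it does not depend on library scaling. Over all 14 libraries it was lowest for miR-98, at 16.3 ± 4.48 (SD), then let-7d at 29.2 ± 16.2 and let-7b at 40.0 ± 12.6. It was 156.2 ± 15.7 for let-7f, the steadiest of the 9, and 382.9 ± 299 for let-7g, the highest. The 3p counts of let-7a and let-7c share 1 sequence, so their separate ratios of 137.6 ± 65.5 and 112.8 ± 70.2 are not independent.

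The ratio stood apart in a few libraries. let-7d was at 6.32 and 3.05 in C57BL/6 naive libraries 4 and 5, against 16.1 to 66.8 elsewhere, and miR-98 was at 4.71 in library 5, against 13.97 to 23.7 in the other 12. In CAST/Ei naive library 3 the ratio was 1480 for let-7i and 1155 for let-7g, the highest of all libraries. These ratios rest on 11 reads of let-7i-3p and 61 reads of let-7g-3p. C57BL/6 naive library 3 came next, at 424.6 for let-7i and 897.0 for let-7g, on 36 and 56 reads of the 3p arms. let-7f stayed between 130.6 and 184.1 in all 14 libraries, libraries 4 and 5 included.

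**Figure D5:**
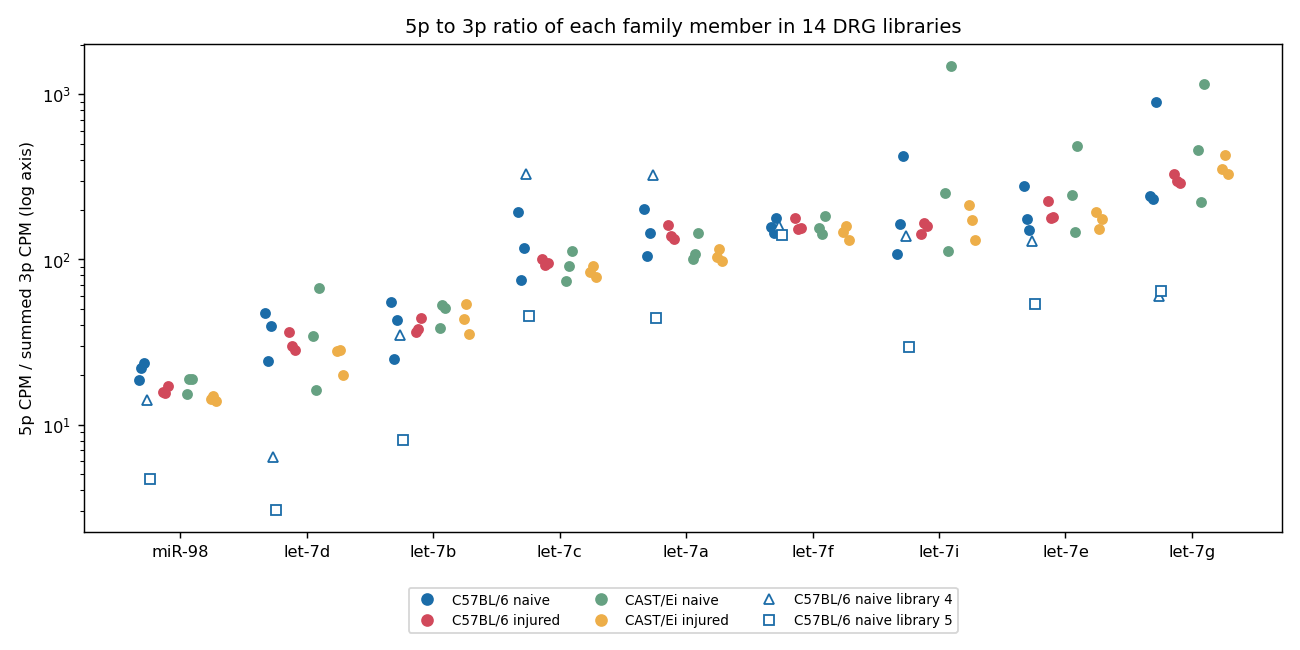
Ratio of 5p CPM to summed 3p CPM for each member in every library, on a log axis, ordered by median, with groups and symbols as before. let-7f is tightly grouped at 130.6 to 184.1, while let-7d drops to 3.05 in C57BL/6 naive library 5. let-7i reaches 1480 in CAST/Ei naive library 3, on 11 reads of its 3p arm.

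The 5p arms varied together across libraries only in part. Pearson's r of log2 CPM over the 14 libraries had a median of 0.45 over the 36 pairs. It ranged from -0.52 (let-7b-5p with let-7g-5p) to 0.97 (let-7b-5p with let-7c-5p). Over the 12 libraries without C57BL/6 naive 4 and 5 the median was 0.77 and the range 0.17 (let-7b-5p with let-7i-5p) to 0.96 (let-7b-5p with let-7c-5p). let-7b and let-7c-2 lie 621 bases apart and their 5p arms also differ at a single base, G17A counted from let-7b-5p. All points share library depth and group, so these are descriptions.

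Of 617 other miRNAs, the level of miR-380-5p was most like the summed 5p level, with r = 0.82 and Spearman's rho = 0.79 over the 14 libraries. miR-6516-5p (r = 0.80, rho = 0.75), miR-195a-5p (0.79 and 0.68), miR-421-3p (0.74 and 0.72) and miR-872-3p (0.73 and 0.59) came next. Without the 2 libraries farthest from the median sum, C57BL/6 injured 1 and C57BL/6 naive 2, r was 0.84, 0.81, 0.92, 0.81 and 0.86 in the same order.

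The let-7 seed also occurs in 2 listed miRNAs outside the family names. miR-1961 (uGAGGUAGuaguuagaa, 17 bases) averaged 36.1 ± 14.5 CPM and let-7k (uGAGGUAGgagguugugug, 19 bases) 9.77 ± 4.13 CPM over the 14 libraries. Both were rarer than every 5p member.

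The miRNAs made from the hairpins beside let-7a-2, let-7c-1 and let-7e, or from their paralogous clusters, were followed as a list of 11 arms of miR-99a, miR-99b, miR-100, miR-125a and miR-125b. All 11 passed the filter and 0 passed the threshold in any of the 6 contrasts, where the shares over all miRNAs are those given above. miR-125b-5p was far above any let-7 member, at 60133 ± 24810 CPM over 14 libraries, and miR-99a-5p, beside let-7c-1, was at 18974 ± 6587 CPM. miR-100-5p had 5071 ± 1208 CPM, miR-125a-5p, 367 bases from let-7e, 9147 ± 5361 CPM, and miR-99b-5p 1685 ± 307.9 CPM.

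Some partners had estimates unlike those of the let-7 arm beside them. miR-125a-5p had a log2 change of -0.93 ± 0.39 (SE; limma adjusted p = 0.170) after injury in C57BL/6, where let-7e-5p had 0.05. miR-99a-3p had 1.14 ± 0.46 (adjusted p = 0.159) there, where let-7c-5p, made from 2 loci, had -0.14. miR-99a-5p, the far more abundant arm of that hairpin, had -0.05, closer to let-7c-5p, and -0.51 without naive libraries 4 and 5. Without naive libraries 4 and 5 the change was -0.33 for miR-125a-5p and 0.41 for miR-99a-3p, beside 0.15 for let-7e-5p and 0.02 for let-7c-5p. The lowest unadjusted p of the list for strain in injured DRG was that of miR-125b-2-3p, at -0.83 (adjusted p = 0.318). Differences between partners and let-7 members were not tested. The 3p arms of the list were scarce as in let-7, from 25.4 ± 5.17 CPM for miR-100-3p to 222.1 ± 81.7 CPM for miR-99a-3p.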

How the data were processed

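Small RNA libraries of 14 DRG samples were read from 1 table per library. Reads were aligned with Bowtie2, per the submitters' processing notes; its version, the genome build and the miRNA release are not stated there. Per the labels' protocols, RNA came from the miRVana kit and libraries from the Ion Total RNA-Seq kit. The deposited signal is a CPM on scaled library sizes: whole reads were recovered (100% of values whole within 1e-06 reads), and TMM factors from these reads gave the same scaling, to within a relative difference of 1.04e-05.

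Here log2(CPM + 1) of 638 miRNAs, those reaching 5 CPM in 3 or more libraries, was fitted with limma-trend (R 4.3.3, limma 3.58.1), with 1 mean per group, 6 contrasts, two-sided tests and Benjamini-Hochberg adjustment within each contrast (threshold 0.05). Fold changes on this scale understate those of scarce arms. edgeR 4.0.16 and DESeq2 1.42.0 on the recovered reads, other pseudocounts, filters and scalings, a replicate block and fits without single libraries were alternatives. The limma, edgeR and DESeq2 fits were tested on simulated data. Sequences were matched by miRNA name to RefSeq (21 of 21 members).

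Named with fold changes are the 9 5p arms and the lowest-p 3p arm in each pairwise comparison, and the 2 lowest-p members in the interaction and the average; 3p arms named otherwise, and library comparisons, were chosen after their values were seen, as were the counts of groups that do not overlap and the cluster partners' values without C57BL/6 naive libraries 4 and 5. The members and lists were chosen with earlier results of these data known. A floor of 3 reads is 0.202 to 0.760 CPM.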

Additional observations from a re-analysis of the deposited data

Results flagged for a closer look

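In C57BL/6 naive, the group with 5 libraries, 41 series of values were examined for a library whose gap to the nearest other exceeds 0.71 of the group's range, which chance gives in about 1 of 20 series. There were 4 such values. let-7c-2-3p was at 282.4 CPM in library 5, against 85.7 to 134.8 CPM in the others, and this sequence is also counted as let-7a-1-3p. miR-98-3p was at 81.8 CPM in library 5, against 21.0 to 30.7 CPM. let-7f-2-3p was at 18.6 CPM in library 4, against 42.9 to 47.4 CPM. The 5p to 3p ratio of let-7g was 897.0 in library 3, against 59.8 to 243.0, with its 3p arm at 14.2 CPM there. Of the 4 values, 3 lie in the libraries 4 and 5 that stood apart over all miRNAs.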

How the results depend on the processing

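The count of members called was 0 in each comparison and under most alternatives. Exceptions were DESeq2 for strain in naive DRG (2), the fit to only the groups compared for strain in injured DRG (4, with the spread of the naive libraries left out), and the replicate block for injury in C57BL/6 (1, miR-98-3p at 0.76, adjusted p = 0.0475). Leaving out 1 library gave 0 to 2 for injury in C57BL/6 and 0 to 1 for strain in naive DRG, the higher counts without C57BL/6 naive replicate 3. Without that replicate, 70 of the 634 miRNAs tested were called for injury in C57BL/6 and 147 for strain in naive DRG. With the block, 37 of 638 were called for injury in C57BL/6. The block fit cannot use C57BL/6 naive libraries 4 and 5, whose numbers occur in no other group. No label says that a number marks a shared animal or day, so the numbers were not treated as pairs. After each group's mean was subtracted, same-numbered libraries correlated at -0.23 to 0.32, and not every library correlated best with its own number.

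The 44 named log2 changes, each refitted under the alternatives, gave 1228 estimates. Of these, 1175 kept direction and side of the threshold, 46 reversed and 7 passed the threshold. In a pairwise comparison, leaving out a library of another group cannot change the limma estimate. No main estimate passed, so keeping the side means only that it was still not called. The count of 1175 is therefore not a measure of stability. For injury in CAST/Ei, plain CPM gave 0.029 for let-7a-5p, 0.083 for let-7b-5p, 0.071 for let-7d-5p, 0.015 for let-7e-5p, 0.040 for let-7g-5p and 0.13 for miR-98-5p. The total without the 3 most abundant miRNAs gave 0.0017, 0.056, 0.044, 0.012 and 0.11 for let-7a, b, d, g and miR-98. Leaving out 1 library gave -0.098 to 0.14 for let-7i-5p and -0.096 to 1.59 for let-7i-3p. For injury in C57BL/6, let-7c-5p was 0.00077 on plain CPM, 0.020 with the block and 0.020 without naive libraries 4 and 5, and -0.34 to 0.085 with 1 library left out. let-7e-5p was -0.035 on DESeq2 size factors, -0.064 in DESeq2, -0.069 in edgeR without C57BL/6 injured replicate 1 and -0.073 to 0.13 with 1 library left out. For strain in naive DRG, let-7d-5p was -0.049 in DESeq2, -0.12 with the block and -0.12 without libraries 4 and 5. let-7e-5p was 0.012 in the last 2 of these. let-7f-5p was 0.014 in edgeR with or without C57BL/6 injured replicate 1. Leaving out 1 library gave -0.19 to 0.093 for let-7a-5p, -0.38 to 0.049 for let-7c-5p, -0.12 to 0.33 for let-7d-5p, -0.22 to 0.16 for let-7e-5p and -0.13 to 0.20 for let-7f-5p. edgeR without libraries 4 and 5, chosen after seeing the data like the other partial edgeR fit, gave -0.047 for let-7d-5p in C57BL/6 injury. In the naive strain comparison it gave -0.24, -0.019 and -0.060 for let-7d-5p, let-7i-5p and miR-98-5p. The cause was not tested.

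The log2 change of the summed 5p CPM after injury in CAST/Ei, -0.26, was 0.015 on plain CPM and -0.011 on totals without the 3 most abundant miRNAs. The share of let-7f-5p in CAST/Ei injured libraries was 20.0% of all arms.

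Over all miRNAs, the number called for injury in C57BL/6 was 20, against 83 in DESeq2, 37 with the block, 3 in only the groups compared, 7 in edgeR without C57BL/6 injured replicate 1 and 6 to 70 with 1 library left out. In CAST/Ei it was 7, against 17 in DESeq2, 21 with the block, 17 without libraries 4 and 5 and 3 to 11 with 1 left out. For strain in naive DRG it was 71, against 118 in DESeq2, 17.4% of the 638 with the block, 21 in only the groups compared and 30 to 147 with 1 left out. For strain in injured DRG it was 21, against 16.5% of the 638 in only the groups compared, 36 with the block and 32 without libraries 4 and 5. Averaged over strains it was 27, against 51 in DESeq2, 59 with the block and 55 without libraries 4 and 5. Scalings moved the share of higher calls from 15 of 20 to 15 of 16 for injury in C57BL/6 and from 38 of 71 to 20 of 58 for strain in naive DRG on plain CPM. Arms of a few CPM, such as let-7a-2-3p, rest on few reads.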
